A study of Drosophila melanogaster with 2 samples.

Results

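The genes ct (cut), nvy (nervy), jbug (jitterbug) and lz (lozenge), all reported as targets of the transcription factor hindsight, were examined in a genome-wide map of where that factor sits in Drosophila melanogaster embryos. The factor is listed in the annotation as pebbled (peb). The 4 genes were chosen by name from those reports, with earlier results of these data known, out of 13945 protein-coding genes on chromosomes X, 2L, 2R, 3L, 3R and 4. Each was read over its gene body and 10000 bp either side.

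The map was made by ChIP-seq, in which DNA bound by a protein is recovered with an antibody and sequenced. Whole embryos of 0 to 24 h came from a strain called peb-GFP, with an insertion that yields peb fused to eGFP, and the antibody was directed against GFP. There were 2 biological replicates in 1 group, all of them tagged, and chromatin had been sonicated to between 200 and 800 bp. No label says whether the embryos also kept an untagged copy of peb. Because all tissues and stages were pooled, strong occupancy in few cells and weak occupancy in many cannot be told apart.

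The measurements are peaks on dm6, each with a summit, a signal value and a score. The score is a scaled irreproducible discovery rate (IDR), the estimated share of entries ranked at least as high that would not recur on repetition. It runs up to 1000, and the lowest score in the joint list was 830, an IDR of 1.0%. The joint list, built from both replicates, held 2845 such peaks, the list of replicate 1 alone 1418 and that of replicate 2 alone 2054. Behind them stood ranked lists of 92933, 68609 and 49814 entries that also hold the weak ones. The median signal value of thresholded peaks was 73.6 in the joint list, 52.4 in replicate 1 and 51.0 in replicate 2. A signal value is the authors' own value for that peak and can be ranked only inside its list, and the lists carry no read depth.

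Hindsight is a large zinc finger protein, related to mammalian RREB1, that can repress or attenuate transcription. In the embryo it is known for its role in the amnioserosa, the extraembryonic tissue that drives germ band retraction and dorsal closure. In the ovary it acts downstream of Notch in follicle cells, where it turns down ct as the cells leave the mitotic cycle, and in the eye it acts in photoreceptors, where jbug was linked to axon targeting. ct encodes a homeodomain factor of sensory organs and renal tubules, and lz a RUNX factor of the eye and of crystal cells. nvy encodes a corepressor of the MTG (ETO) family, and jbug a filamin, which crosslinks actin. Neither ovaries nor eyes were sampled here.

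Of the 4 genes, ct alone carried thresholded peaks. It had 3 summits in the joint list, 0 in the list of replicate 1 and 1 in that of replicate 2. nvy, jbug and lz had 0 in each of the 3 lists. Among all protein-coding genes, 46.1% had a joint summit in the gene or within 10000 bp, 30.2% had one in replicate 1 and 39.6% in replicate 2, so that having a peak by this rule was common. Genes with long windows had one more often. Of 197 genes with a window from 20% shorter to 25% longer than the ct window (90.43 kb), 64.5% had at least 1 joint summit, and 27.4% had 3 or more. The shares for windows like those of nvy (35.35 kb), jbug (43.14 kb) and lz (38.99 kb) were 58.2%, 59.1% and 58.8%. Read against these shares, the outcome at each of the 4 genes was a common one. With 1 group and no second condition, no test was run.

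The ct gene (FBgn0004198) lies on the plus strand of chromosome X, from 7608428 to 7678859, and its 3 annotated transcripts start at 3 transcription start sites (TSSs), at 0, 720 and 23794 bp from the first. All 3 joint peaks were in introns and none within 1000 bp of a TSS. Their sequences are shown because they are the only stretches at the 4 genes that passed the threshold. Each is the plus strand of dm6 (RefSeq) from 100 bp before to 100 bp after the summit, with the 21 bases centred on the summit in capitals.

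ct first peak, chrX:7616984-7617184: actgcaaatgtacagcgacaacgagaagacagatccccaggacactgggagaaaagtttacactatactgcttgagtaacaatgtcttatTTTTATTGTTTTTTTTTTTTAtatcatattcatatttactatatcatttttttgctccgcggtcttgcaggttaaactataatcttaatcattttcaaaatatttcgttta
ct second peak, chrX:7618274-7618474: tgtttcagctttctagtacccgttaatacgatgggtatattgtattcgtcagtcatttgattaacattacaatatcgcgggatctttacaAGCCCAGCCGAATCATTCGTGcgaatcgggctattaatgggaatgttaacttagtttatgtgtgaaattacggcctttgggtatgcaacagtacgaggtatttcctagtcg
ct last peak, chrX:7651686-7651886: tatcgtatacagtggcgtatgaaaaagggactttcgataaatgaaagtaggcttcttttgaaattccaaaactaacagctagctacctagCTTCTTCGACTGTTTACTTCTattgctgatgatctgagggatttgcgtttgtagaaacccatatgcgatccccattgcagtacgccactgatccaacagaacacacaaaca

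The first peak (X, 7616922 to 7617245) had its summit 8656 bp from the first TSS, in intron 1. Its signal value was 59.6 in the joint list, 20.8 in replicate 1 and 39.6 in replicate 2. Its score was 1000 in the joint list and 1000 in replicate 2, but 75 in replicate 1. It was the sole ct peak to pass in a single replicate, and the capitals above show that the bases around its summit are mostly T.

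The second peak (X, 7618212 to 7618535) lay 1290 bp from the first, summit to summit, in the same intron and 9946 bp from the first TSS. Its signal value was 68.8 in the joint list, where it was the strongest of the 3, 27.7 in replicate 1 and 38.7 in replicate 2. In replicate 1 the last peak was stronger, and in replicate 2 the first. Its joint score of 831 (IDR 0.993%) was just inside the threshold, its score in replicate 2 of 782 (IDR 1.31%) just outside it, and its score in replicate 1 was 120. The conservative list, also made from both replicates, is smaller (2689 peaks) but has the same lowest score of 830. In it the second peak scored 1000.

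The last peak (X, 7651624 to 7651947) was 33412 bp further on, in intron 2 of the longest transcript and 19564 bp past the last of the ct TSSs. The signal value there was 57.1 in the joint list, 31.0 in replicate 1 and 26.5 in replicate 2. Here the replicates were ordered the other way, since the score was 701 in replicate 1 and 323 in replicate 2, both below the threshold, while the joint score was 1000.

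**Figure D1:**
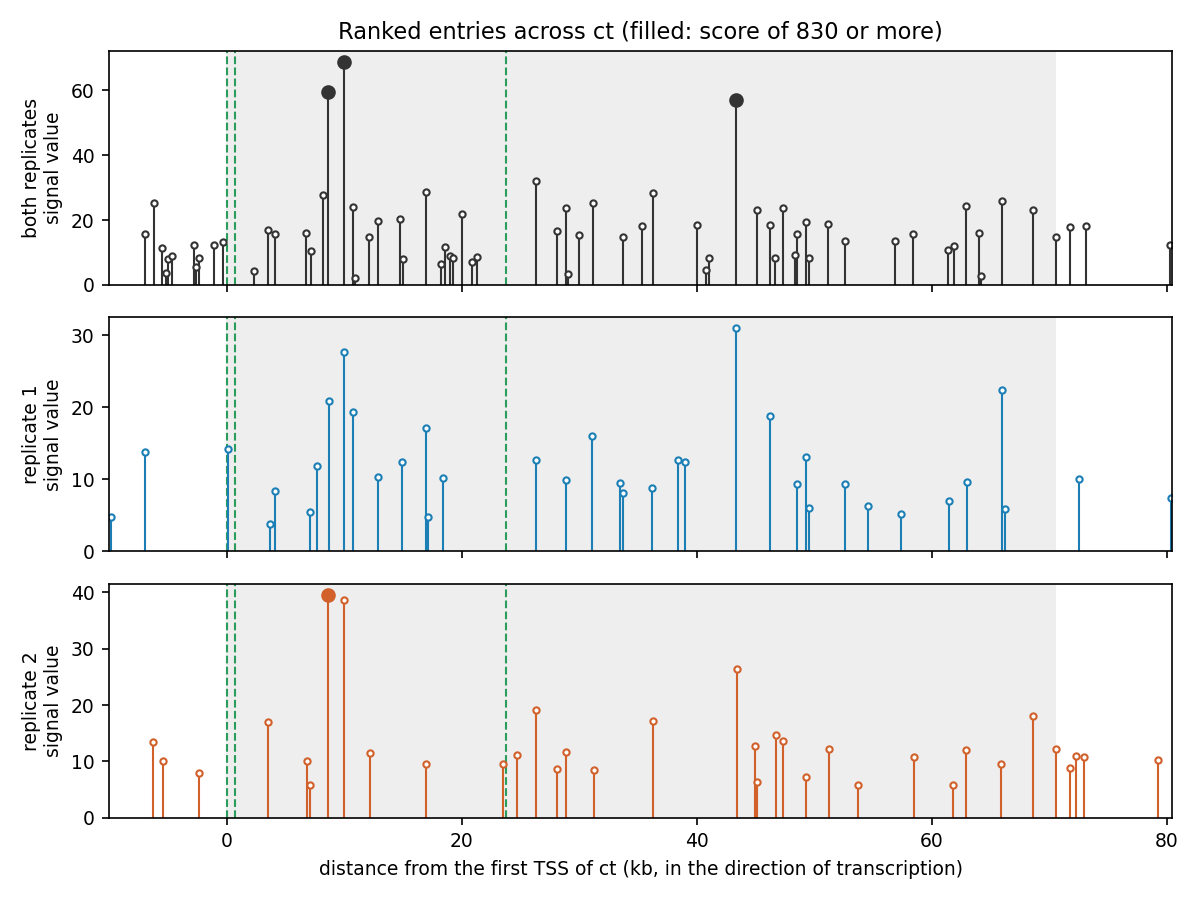
Signal value (y axis) of every ranked entry against distance from the first TSS of ct in kb (x axis), for the joint list and each replicate; filled points have a score of 830 or more, the gene body is grey and dashed green lines are TSSs. The joint list has 3 filled points, replicate 1 has 0 and replicate 2 has 1, and all 3 positions carry an entry in both replicates.

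All 3 ct peaks thus had an entry in the ranked list of each replicate. These lists are long, and the share of all joint peaks with an entry in both was not computed. The ct summits were 6, 37 and 2 bp from the joint ones in replicate 1 and 0, 0 and 10 bp away in replicate 2. In the ranked lists, 92.6% to 97.3% of entries of replicate 1 and 94.0% to 96.8% of those of replicate 2 had a lower signal value. Within the thresholded joint list they were of modest strength, at ranks 1933, 1596 and 2039 of 2845, and all 3 were also in the conservative list. Of the 449 joint peaks with a signal value in their range, 49.4% overlapped a thresholded peak of replicate 2 only, 16.0% one of replicate 1 only, 30.7% of neither and 3.79% of both. Of the 3 ct peaks, 1 was found in replicate 2 only and 2 in neither, which are too few to compare with these shares. The 449 include the ct peaks, whose signal values set the range.

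The rest of the ct locus held weak entries. The joint ranked list had 69 entries in the window, 54 of them in the gene, 11 upstream and 4 downstream, with a median signal value of 15.5, and 56 of the 69 had a score of 100 or less. Replicate 1 had 37 entries and replicate 2 had 35. The strongest replicate 1 entry away from the 3 peaks (22.4) was in an exon near the end of the gene, 65984 bp from the first TSS. Replicate 2 had no summit within 100 bp of its summit, but 1 replicate 2 entry overlapped it. Up to 100000 bp upstream of the first TSS, a stretch that holds the distant wing margin enhancer of ct, there was no further thresholded peak in any of the 3 lists. The strongest joint entry there had a signal value of 37.5 and a score of 335, at -37049 bp from the TSS. Downstream, 3 joint peaks lay between 14055 and 19552 bp past ct, all in CHES-1-like, a forkhead gene, with signal values of 72.9, 70.1 and 191. The strongest of these passed in both replicates.

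The jbug gene (FBgn0028371, 2R, 22717321 to 22740459, minus strand) came closest to the threshold among the genes without a peak, except in the conservative list. There the highest score was 308 at nvy and 300 at jbug. The 10 jbug transcripts start at 3 TSSs, at 0, 3414 and 11187 bp from the first. In replicate 1 the strongest entry (22729177 to 22729486) had a signal value of 31.6 and a score of 603 (IDR 3.52%), with its summit upstream of the innermost TSS (-60 bp), which serves 6 of the transcripts. At that site replicate 2 had an entry of 9.72 with a score of 18, the 14th strongest of its 18 entries in the window. The joint entry was 41.0 with a score of 771 (IDR 1.38%), and the conservative ranked list gave it 41 (IDR 79.6%). So the position next to the inner TSS was high in replicate 1 and low in replicate 2.

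In replicate 2 the strongest jbug entry was elsewhere, at 22737840 to 22738143, with its summit in intron 1 and upstream of the middle TSS (-947 bp). It had a signal value of 26.9 and a score of 680 (IDR 2.30%), and no entry of replicate 1 overlapped it. The next of replicate 2 (21.1, score 203) lay a little further from the same TSS (-1410 bp) and also had no counterpart in replicate 1. The other entries among the 3 strongest were weaker. They had signal values of 16.2 and 16.0 in replicate 1, the latter in the neighbouring gene CG30268, and 15.6 in replicate 2, in an exon. Thus each replicate had a different leading entry in jbug, each upstream of an inner TSS.

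At nvy (FBgn0005636, 2R, 24275734 to 24291084, plus strand), 4 transcripts start at 2 TSSs that lie 8953 bp apart. The strongest joint entry (40.2, score 391, IDR 11.4%) was at 24283727 to 24284050, with its summit upstream of the inner TSS (-798 bp). In the conservative ranked list the same entry scored 53 (IDR 74.3%). It corresponded to a replicate 1 entry of 27.4 with a score of 308. Replicate 2 had 11.2 there, with a score of 18. A further entry of replicate 1 (19.1, score 127) lay 269 bp past the same TSS in an exon, and had no counterpart in replicate 2. By rank the site was 2349 of 68609 in replicate 1 and 24446 of 49814 in replicate 2, so it stood high in the former only.

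At the outer nvy TSS, replicate 2 had an entry of 18.7 with a score of 198, its summit 218 bp into the gene, and replicate 1 one of 13.2 with a score of 13. The remaining leading entries of the window were downstream of nvy and closer to Fatp3, which is named for fatty acid transport. The strongest of replicate 1 (27.5, score 567, IDR 4.31%) was 3938 bp past the Fatp3 TSS. Those of replicate 2 were 19.5 (score 59) inside Fatp3 and 18.2 (score 47) just upstream of its TSS (-107 bp). The highest nvy score in replicate 2, 386, went to an entry of only 16.1 upstream of the outer TSS (-680 bp).

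The lz gene (FBgn0002576, X, 9284649 to 9303636, plus strand) has 2 transcripts with 1 TSS, and its strongest entry was the lowest of the 4 genes in each list. Its median entry was the lowest in replicate 1, at 7.31, and in the conservative ranked list, at 11.8. The lz median was 14.3 in the joint ranked list, where that of jbug was 13.1, and 11.2 in replicate 2, above the other 3 genes. In the joint ranked list its strongest entry was 28.0 with a score of 35 (IDR 82.0%), and no entry of the window had an IDR below 56.9%. The strongest entry of replicate 2 (17.7, score 242) was in intron 5, 11117 bp from the TSS, where replicate 1 had 8.43. In replicate 1 that entry was among 3 that shared a score of 354 (IDR 14.0%), the highest in the lz window. The strongest of replicate 1 by signal value (20.5, score 32) was upstream of lz (-1852 bp) but inside the neighbouring gene c11.1, 320 bp from the TSS of that gene. The other leading entries were weaker still, at 12.6 and 11.7 in replicate 1, both in exons of lz, and at 13.5 (downstream) and 12.8 (intron 2) in replicate 2. The 2 sequences are shown to let the weak intronic site be set beside the one at c11.1, in the same format as above.

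lz intron 5, strongest entry of replicate 2, chrX:9295666-9295866: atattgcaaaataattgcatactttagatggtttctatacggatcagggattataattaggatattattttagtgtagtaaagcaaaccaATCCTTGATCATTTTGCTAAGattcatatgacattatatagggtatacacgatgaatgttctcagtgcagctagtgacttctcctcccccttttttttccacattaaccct
lz upstream, strongest entry of replicate 1, chrX:9282697-9282897: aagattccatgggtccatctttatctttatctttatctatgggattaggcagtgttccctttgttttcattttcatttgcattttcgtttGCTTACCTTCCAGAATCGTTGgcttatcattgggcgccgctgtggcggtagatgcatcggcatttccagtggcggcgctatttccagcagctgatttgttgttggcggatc

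**Figure D2:**
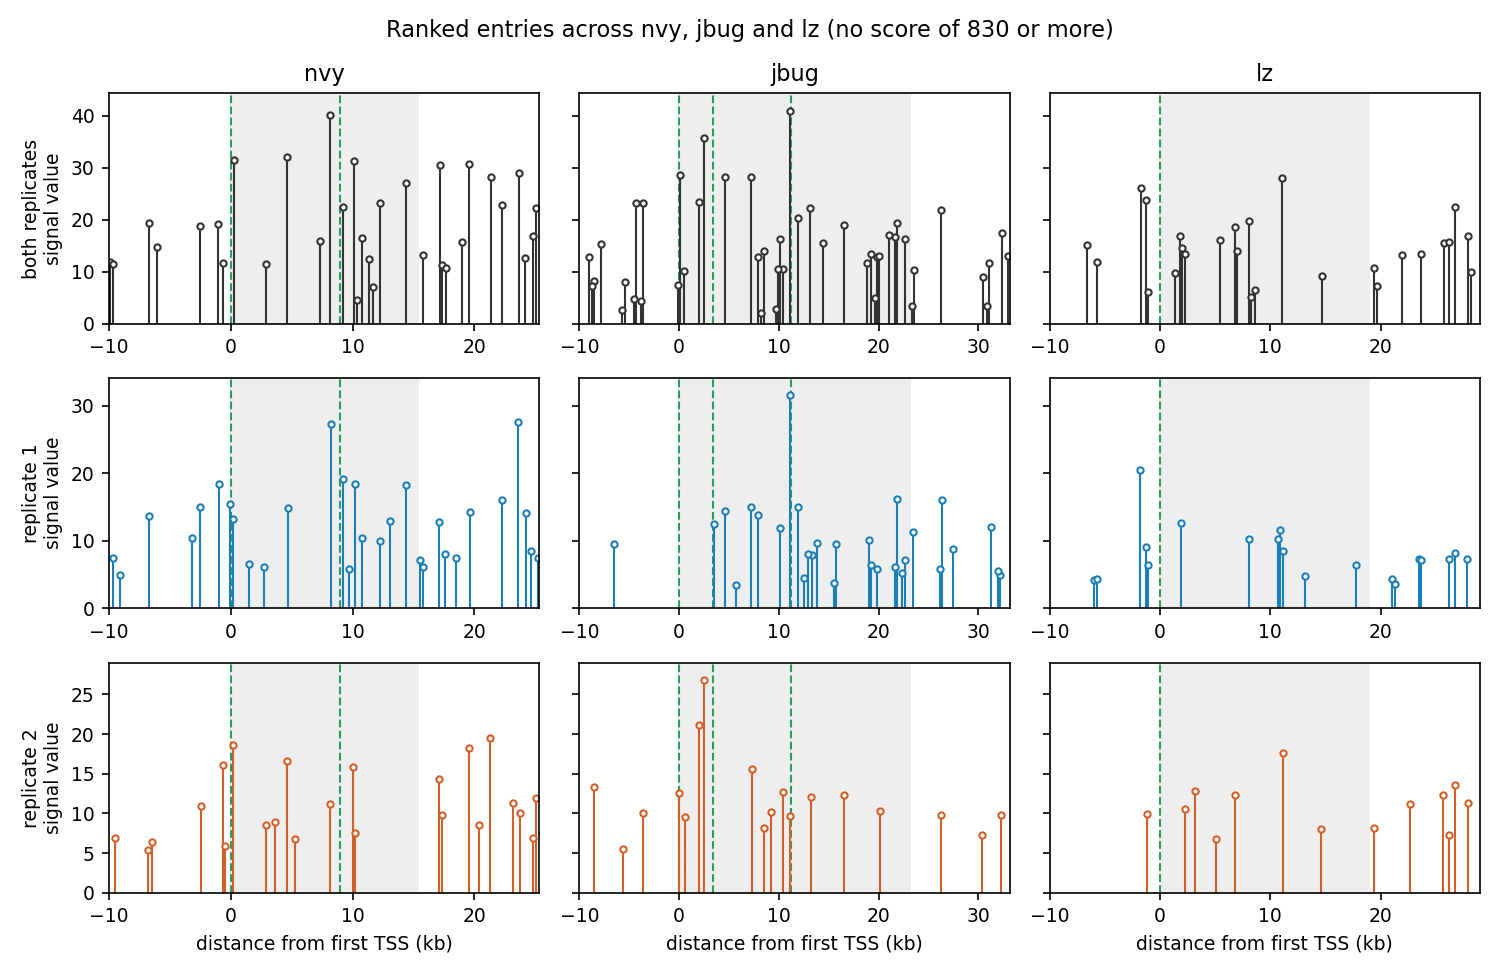
Signal value (y axis, a common scale within each row) of ranked entries against distance from the first TSS in kb (x axis) for nvy, jbug and lz (columns), in the joint list and each replicate (rows); the gene body is grey and dashed green lines are TSSs. No entry reached a score of 830, and the leading jbug entry of replicate 1 (31.6) and that of replicate 2 (26.9) are at different places.

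The lack of a thresholded peak extended beyond 10000 bp. The nearest joint peak was 28443 bp from nvy, towards betaTub60D, 38926 bp from jbug, towards RYBP, and 48712 bp from lz, towards Zdhhc8. Each was downstream of the gene, and its signal value was 103, 263 and 62.1 in turn. At nvy and jbug these peaks were also the nearest in each replicate. At lz the one of replicate 2 was again the nearest, while the nearest of replicate 1 was another, 88204 bp upstream.

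The signal values of the leading entries did not by themselves set these genes below all thresholded peaks. The joint list held 169 peaks with a lower signal value than the leading jbug entry, 163 below that of nvy and 141 below that of lz. Among the 500 joint ranked entries closest in signal value, however, 4.60% passed the score at the level of jbug, 2.20% at that of nvy and 0.200% at that of lz, against 95.0% at that of the strongest ct peak. Failing the threshold was thus the usual outcome at these signal values.

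**Figure D3:**
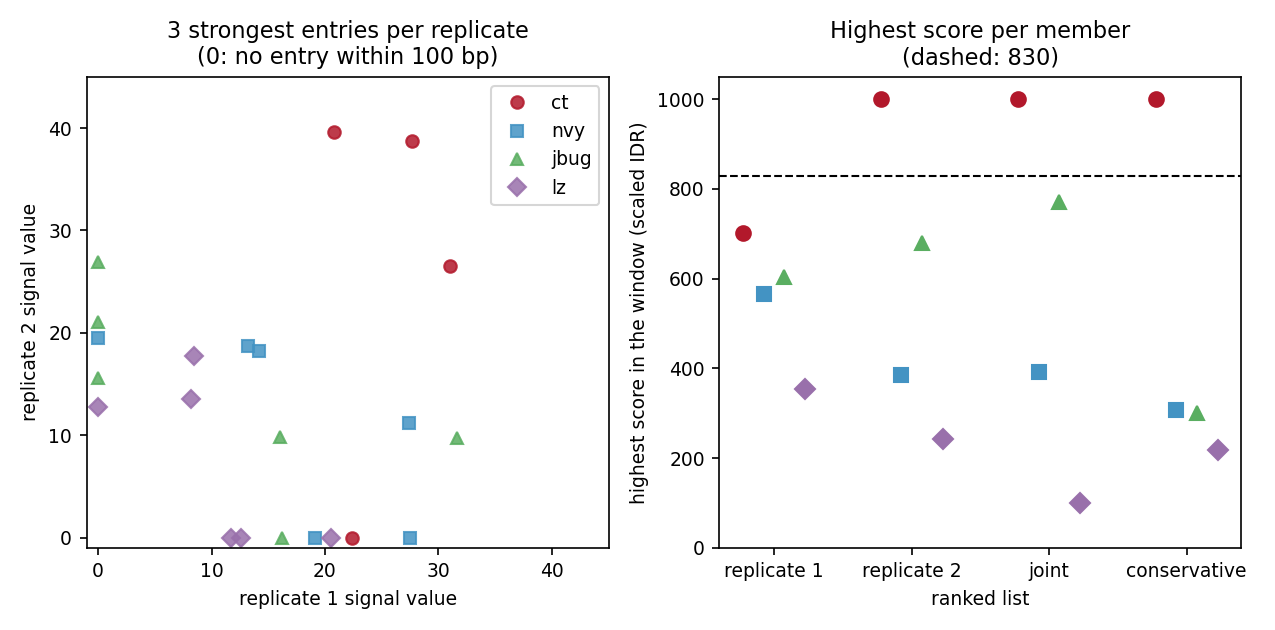
Left, signal value in replicate 1 (x axis) and replicate 2 (y axis) at the 3 strongest entries of each replicate per gene, with 0 where the other replicate had no entry within 100 bp; right, the highest score (y axis) in the window of each gene by ranked list (x axis), with the threshold of 830 dashed. Each axis is a separate list, so signal values are read along 1 axis at a time. At each of the 3 ct peaks, at least 92.6% of replicate 1 entries and 94.0% of replicate 2 entries had a lower signal value. By score, jbug reached 771 in the joint list.

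Most ranked entries of one replicate, strong and weak together, had no counterpart in the other, at these genes and over all entries. Of the ranked entries of replicate 1, a summit of replicate 2 lay within 100 bp in 11 of 37 cases at ct, 8 of 30 at nvy, 3 of 29 at jbug and 4 of 19 at lz. Over all entries on the 6 chromosomes the share was 23.7%. In the other direction the counts were 11 of 35, 8 of 23, 3 of 18 and 4 of 13, beside 32.6% over all entries. The jbug shares, 10.3% and 16.7%, were the lowest of the 4 genes, and rest on few entries.

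In density of ranked entries, nvy was above the median of all genes and lz and ct below it in both replicates. At nvy there were 8.49 entries per 10 kb in replicate 1 and 6.51 in replicate 2, more than in 85.5% and 88.0% of protein-coding genes. At lz the values were 4.87 and 3.33 per 10 kb, above 25.4% and 25.3% of genes. The median gene had 6.34 and 4.49. ct had 4.09 and 3.87 per 10 kb, and jbug 6.72 and 4.17, which placed them at 15.8% and 36.2%, and at 57.0% and 42.5%. In the joint ranked list jbug was the densest of the 4, at 10.7 per 10 kb, above 80.7% of genes. There nvy had 9.05 (56.8%), ct 7.63 (34.4%) and lz 6.67 (22.9%), where the median gene had 8.65. Among genes with a window like that of ct, however, ct was above the median of 3.71 in replicate 2 (53.8% of them lower) and below that of 5.43 in replicate 1 (22.3%).

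By the strongest entry in the window, the order was less even across lists. Among genes with a window of like length, the share with a lower highest signal value in the joint list was 49.7% for ct, 29.8% for nvy, 31.2% for jbug and 7.45% for lz. In replicate 1 the shares were 47.2%, 46.4%, 55.7% and 22.5%, so that jbug stood above ct there. In replicate 2 they were 48.2%, 19.6%, 38.5% and 12.2%. ct was close to the middle of its length class in all 3 lists, and lz was the lowest of the 4 genes in all 3.

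**Figure D4:**
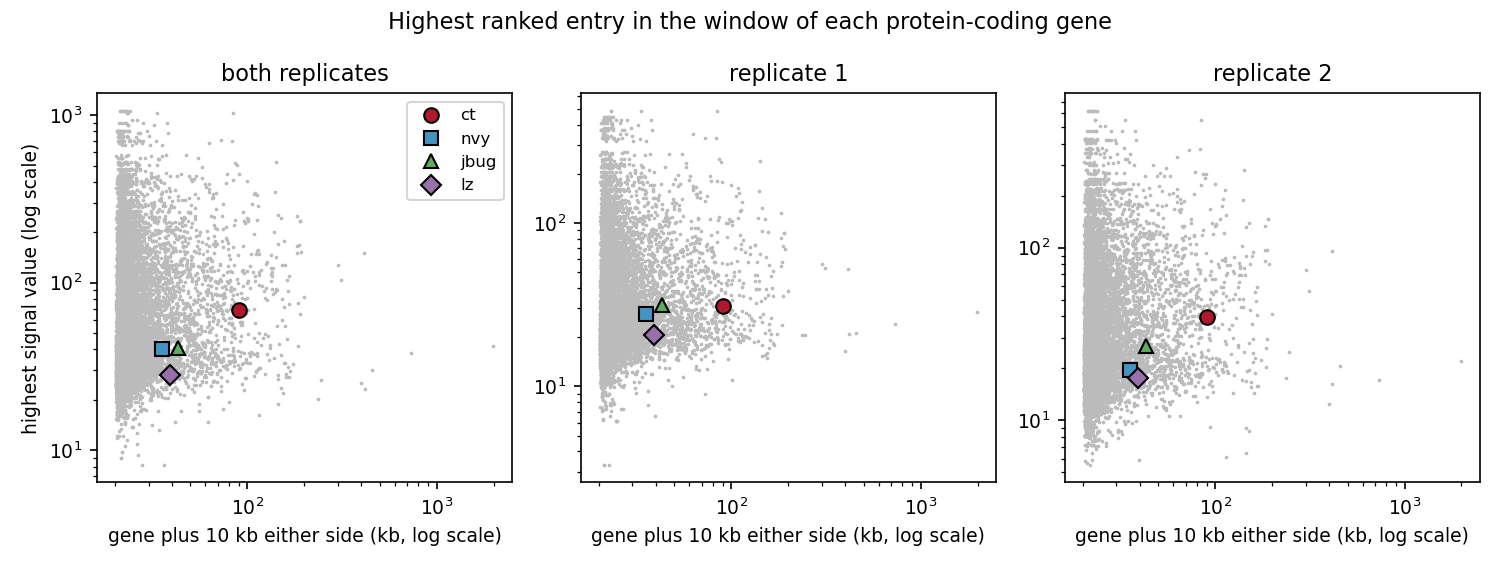
Highest signal value of a ranked entry (y axis, log scale) in the gene and 10 kb either side against the length of that window in kb (x axis, log scale) for each protein-coding gene (grey) and the 4 genes (coloured), in each list. ct is above the other 3 genes in the joint list and in replicate 2, and lz (28.0 in the joint list, 20.5 and 17.7 in the replicates) is the lowest in each panel.

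The stretches of 100 bp either side of the summits were searched on both strands for 10 short sequences. No match to any of them was found at the 3 ct peaks. Pieces of the site bound by mammalian RREB1 were CCAAACC, present at 1.94% of all joint summits, then ACCACCC, at 1.41%, as well as CACCCC, at 4.96%. ACCACCC occurred once at the strongest entry of replicate 1 in the nvy window, which lies downstream of nvy with Fatp3 as the nearest TSS, beside GTGGGAA, a form of the Su(H) site of Notch signalling found at 1.90% of joint summits. The leading jbug entry of replicate 1 had GTGGGAA as well, with CAGGTA, the core of the Zelda site (4.61%). The strongest entry of replicate 1 in the lz window, which lies in c11.1, had GATAAG on the minus strand, the letters bound by factors of the family named GATA (9.57%). Searches for TGTGGT, the RUNX site (7.88%), for GTGAGAA, also Su(H) (2.89%), for GAGAGAG (4.58%) and for TGANTCA, the AP-1 site (4.72%), gave no match at any of these entries. The strongest entry of each replicate in each window was searched, so the replicate 1 entry within nvy near its inner TSS was not. The entries in the nvy and jbug windows, without sequence shown here, were read from dm6 in the same way. A match is a description of letters and not evidence of occupancy.

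In base composition the entries differed. The ct windows had 30.8%, 40.3% and 40.8% G or C, where the joint summits had a median of 35.3% (quartiles 30.8% and 40.3%). The strongest entries of the nvy window, both downstream of nvy and nearest to Fatp3, had 55.7% in replicate 1 and 61.7% in replicate 2. The leading jbug entry of replicate 1 had 59.7%. The leading jbug entry of replicate 2 had 36.3%. In the lz window the entry in c11.1 had 45.3% and the one in intron 5 had 33.3%. The part of base composition in the ranking of weak entries was not tested.

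Genes tied to these 4 or to hindsight gave a mixed picture by the same rule. Of 15 such genes, 8 had a joint summit in the gene or within 10000 bp, a share near the 46.1% of all genes. peb itself had 3, the strongest of 102, and puc, the JNK phosphatase gene, also had 3 (97.8). stg, the mitotic phosphatase gene that hindsight represses with ct in follicle cells, had 1 of 46.6, found in neither replicate alone. Bgb and Bro, neighbouring genes for the partner subunits of RUNX factors, shared a peak of 160. run, RunxA and RunxB, the other RUNX genes, had 0, as did cher, which encodes a filamin like jbug, and onecut, which shares the cut domain with ct. N had 2, PlexA 1 and Sema1a 6, whereas Delta and Su(H) had 0.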

How the data were processed

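Peak lists of 2 replicates and of both together were used, 8 lists in all. Per the file headers, the lists are on dm6 and derive from the alignments of 1 replicate or of both, with a further input that fold-over-control tracks share; it is assumed to be the control. Aligner, peak caller and depth are not given in the sources used here. The authors deposited for each peak a signal value, which is the peak's own value and was compared within a list only, and a score, the scaled IDR. The deposited −log10 of the global IDR in the ranked lists was turned into a percentage. The 8 last columns of each ranked list (32 in all) match no sample by label, so they were left out.

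Summits were placed on Ensembl release 115 and the dm6 sequence in Python 3.11.15 with numpy 2.4.6 and pandas 2.3.3. All peaks lay within the chromosome lengths. Introns are numbered in the longest transcript that spans a summit. Entries of different lists were matched within 100 bp of their summits, and thresholded peaks by 1 bp of overlap. The larger of the thresholded lists from both replicates is called joint, and its ranked list is the one that holds all its peaks. Counting and pattern search were tested on simulated data with planted answers. Named were all joint peaks of the 4 genes and the 3 strongest entries per gene and replicate, companion genes by count, and other entries only where they lead a list. The genes and lists were chosen with earlier results of these data known. The window length, score, list, assignment, overlap and summit window were varied. No test was run. Sequences on 2R are not printed.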

Additional observations from a re-analysis of the deposited data

How the results depend on the processing

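Of 64 alternative settings, 56 left the value as it was or within 1.5 times of it. The counts at nvy, jbug and lz were 0 under all settings run, but many of these outcomes were fixed in advance. Shorter flanks, a score of 1000 only, assignment by nearest TSS and merging can only leave a count of 0 at 0. Ranked joint entries of score 830 or more repeat the joint list at these genes. Only the flank of 20000 bp, the conservative list and the lists of single replicates could have raised the counts. The fixed outcomes are among the 56, so that number is not a measure of robustness. The count of 3 at ct became 6 with a flank of 20000 bp, through the peaks in CHES-1-like, and was 1 without replicate 1 and 0 without replicate 2. With a score of 1000 only it was 2. No ct peak was in both thresholded replicate lists, whereas 3 were in both ranked lists, which are long. The share of genes with a joint summit was 8.41% with no flank and 22.9% with 2000 bp. It was 39.6% without replicate 1 and 30.2% without replicate 2. The pattern matches at the leading entries of nvy, jbug and lz numbered 5 within 100 bp either side of the summit. They numbered 3 within 50 bp and 6 within 150 bp. The cause of these differences was not tested, apart from the changed windows and lists themselves. Extending the ct window to 100000 bp upstream, a setting added after the data were seen, left 3. No paired analysis was possible because there is 1 group. Read depth is unknown, so a site without a thresholded peak is not shown to be unbound.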

Other observations

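The window of the last ct peak, 100 bp either side of its summit on chromosome X, held an inverted repeat. Its left arm, CAGTGGCGTA, lay at 7651695 to 7651704 and its right arm, the reverse complement TACGCCACTG, at 7651856 to 7651865, so the summit lies between them. Arms of 10 bp or more were found in 7.88% of the windows of all 2841 joint summits, where the median of the longest arm was 7 bp. The longest arms at the first and the second ct peak were 6 and 8 bp. This feature was looked for after the sequences had been seen, and it is given as a description with no test.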
